A study of Homo sapiens with 2 samples.

Results

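NRF-1 peaks at 8 glioblastoma driver genes (EGFR, PDGFRA, CDKN1A, MDM2, CDK4, NF1, RB1 and TERT) were described in U251, a long-established cell line from a human glioblastoma. The genes were a list chosen by name, and they were 8 of the 19794 protein-coding genes annotated on chromosomes 1 to 22, X and Y. NRF-1 was immunoprecipitated by ChIPmentation, in which Tn5 transposase adds the sequencing adapters to the captured chromatin, from cells that had received either control siRNA (siControl) or siRNA targeting AATF (siAATF). AATF is a transcriptional cofactor, and the study asked whether its loss alters where NRF-1 sits on chromatin. The sample labels name U251 for both libraries, while the design text of the series names U138. 1 peak list per condition was analysed, with 18014 peaks in siControl and 18454 in siAATF, so no spread between replicates and no test between conditions could be had. Peak lists hold no RNA level, so neither the identity of the cells nor the depletion of AATF could be checked from them. The paper itself names U251 for this ChIP-seq and presents a western blot of the transfected cells. The read depth was unknown.

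NRF-1 binds as a dimer to a GC-rich palindrome and is best known for promoters of nuclear genes that serve the mitochondria, though it also sits at CpG-rich promoters of many other genes. The 8 genes belong to the pathways most often altered in glioblastoma. EGFR and PDGFRA are growth factor receptors with tyrosine kinase activity, and NF1 encodes neurofibromin, which switches off RAS. CDKN1A encodes p21, an inhibitor of cyclin-dependent kinases, and MDM2 encodes a ubiquitin ligase. CDK4 drives the cell past the G1 checkpoint held by RB1, and TERT encodes the catalytic subunit of telomerase.

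The sequences under the peaks are shown first, because the driver genes differed in how closely they matched the NRF-1 palindrome. The core searched for was the half-site GCGCA joined to its reverse complement, 10 bases in all, and the best match was the one with the fewest mismatches, taking the one nearest the middle of the peak where several tied. Each line gives the plus strand of the hg19 reference, 5′ to 3′, and capitals mark the best match. U251 cells may differ from this reference. For NF1, the 150 bases before its first coding start (chr17:29421795-29421944) are shown, since they hold the only exact core among the promoter peaks of the 8 genes.
NF1: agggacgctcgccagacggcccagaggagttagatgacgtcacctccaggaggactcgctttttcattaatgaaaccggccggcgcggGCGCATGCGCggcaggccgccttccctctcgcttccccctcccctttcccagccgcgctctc

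For the other genes, 30 bases around the best match are shown, so that the drift from the palindrome can be seen. They are at chr12:69201903-69201932 for MDM2, chr12:58146191-58146220 for CDK4, chr6:36646531-36646560 for CDKN1A, chr7:55087140-55087169 for EGFR, chr13:48877896-48877925 for RB1, chr5:1295122-1295151 for TERT and chr4:55096420-55096449 for PDGFRA. Within the peaks, MDM2, CDK4, CDKN1A and EGFR had 2 mismatches and RB1, TERT and PDGFRA had 3. A narrow peak offers fewer positions to match. Searched within 1 kb of any coding start, in a peak or not, TERT and PDGFRA also had 2 and RB1 still had 3. CDK4 and TERT are transcribed from the minus strand.
MDM2: gcacaaatgcCCGGATGCGCcgcgacgacc
CDK4: cgtgaccgccACCCATGCGCtgaggggcgg
CDKN1A: ggagctgggcGCGGATTCGCcgaggcaccg
EGFR: caccggctcgGCGCCCGCGCccccgcccgt
RB1: gcgggggaggGCGCGTCCGGtttttctcag
TERT: ccagggcttcCCACGTGCGCagcaggacgc
PDGFRA: cgggttgcacGCCCTAGCGCgggggcgaca

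A match with 2 or 3 mismatches is common. Of the promoter peaks of coding genes in siControl, 3.48% held the exact core, 21.5% held it with at most 1 mismatch, 65.4% with at most 2 and 97.7% with at most 3. A control palindrome of the same bases, made from the half-site CGGCA, was found exactly in 0.0599% and with at most 1 mismatch in 3.63%. With at most 2 mismatches it was found in 47.3% and with at most 3 in 97.2%. The control shares its central GCATGC with the core, so 1 stretch can match both with 2 or 3 mismatches. It therefore cannot show how often such matches arise without the core. NF1 was the gene that stood out by this measure. Its core lay 107 bp upstream of the canonical transcript start. The MDM2 match lay 39 bp upstream, the CDK4 match 113 bp upstream, and the CDKN1A, EGFR, RB1 and TERT matches 55, 445, 24 and 46 bp downstream of the start.

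A promoter peak, within 1 kb on either side of any coding transcript start, was found for all 8 genes in siControl and for 7 of 8 in siAATF. Among all coding genes the share was 61.1% in siControl and 60.7% in siAATF. The 7 genes with a promoter peak in both lists had peaks that overlapped by at least 1 base, which 59.4% of coding genes also had. PDGFRA had a promoter peak in siControl only, as did 1.62% of coding genes. None of the 8 had one in siAATF only, against 1.17% of coding genes. The 8 genes had 9 promoter peaks in siControl and 8 in siAATF, since CDK4 had 2 in each list. With a −log10 q of at least 5, promoter peaks were left for 6 of the 8 genes in the siControl list and for 7 in the siAATF list, beside 51.5% of coding genes in each list. With 8 genes and 1 list per condition these counts are descriptions.

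**Figure D1:**
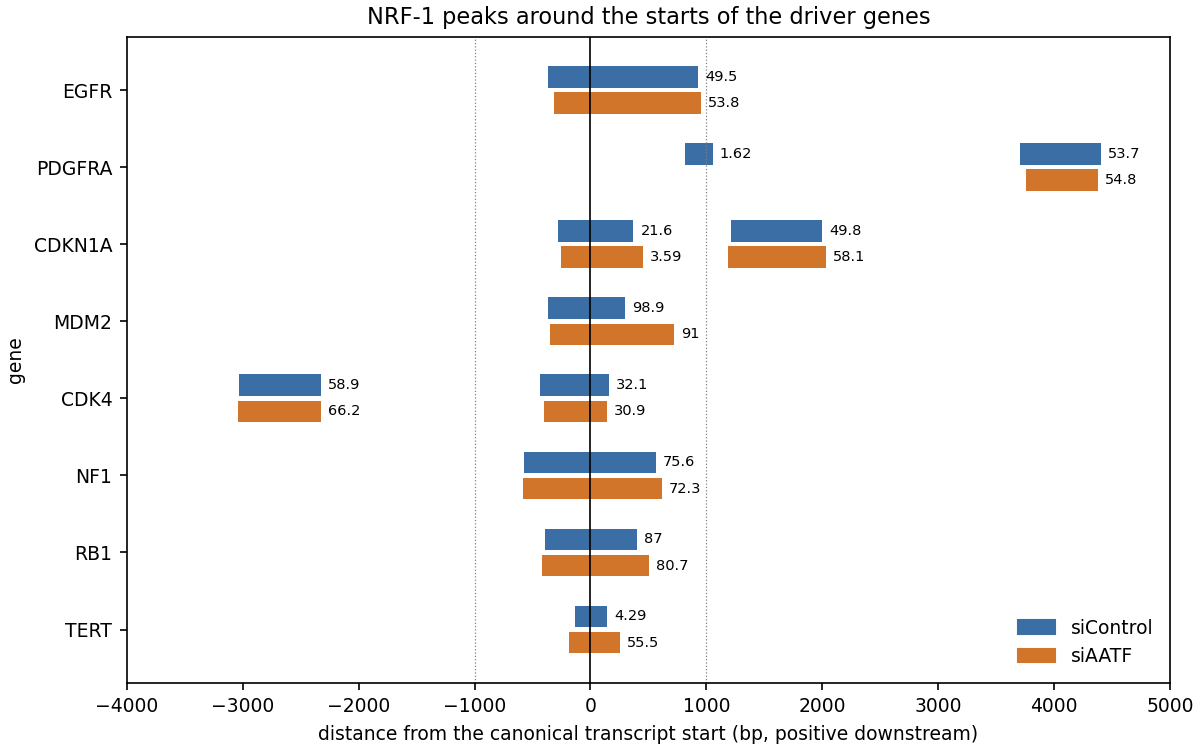
NRF-1 peaks of siControl (blue) and siAATF (orange) are drawn as bars by their distance in bp from the canonical transcript start of each driver gene, with downstream to the right, and the number beside a bar is its percentile rank within that list. Dotted lines mark 1 kb either side of that start. All genes but PDGFRA have a peak over the start in both lists, and TERT goes from rank 4.29 to 55.5.

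The strength of each peak is given by its fold enrichment over the local background of its own library. Its −log10 q, which also grows with depth, is given too. The percentile rank by fold enrichment is on a scale where the weakest peak of the list has 0 and the strongest 100. Fold enrichments of different libraries are set side by side without a test. In siControl the promoter peaks were ordered MDM2, RB1, NF1, EGFR, CDK4, CDKN1A, TERT and PDGFRA by percentile rank of fold enrichment. In siAATF that order was MDM2, RB1, NF1, TERT, EGFR, CDK4 and CDKN1A. The order depended on the measure. By −log10 q the siControl ranks were NF1 98.4, MDM2 84.8, CDK4 72.1, RB1 70.9, EGFR 67.9, CDKN1A 62.3, PDGFRA 9.94 and TERT 6.71. In siAATF the CDKN1A peak ranked 3.59 by fold enrichment but 50.6 by −log10 q. With no replicates, it is not known which neighbours in these orders differ.

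**Figure D2:**
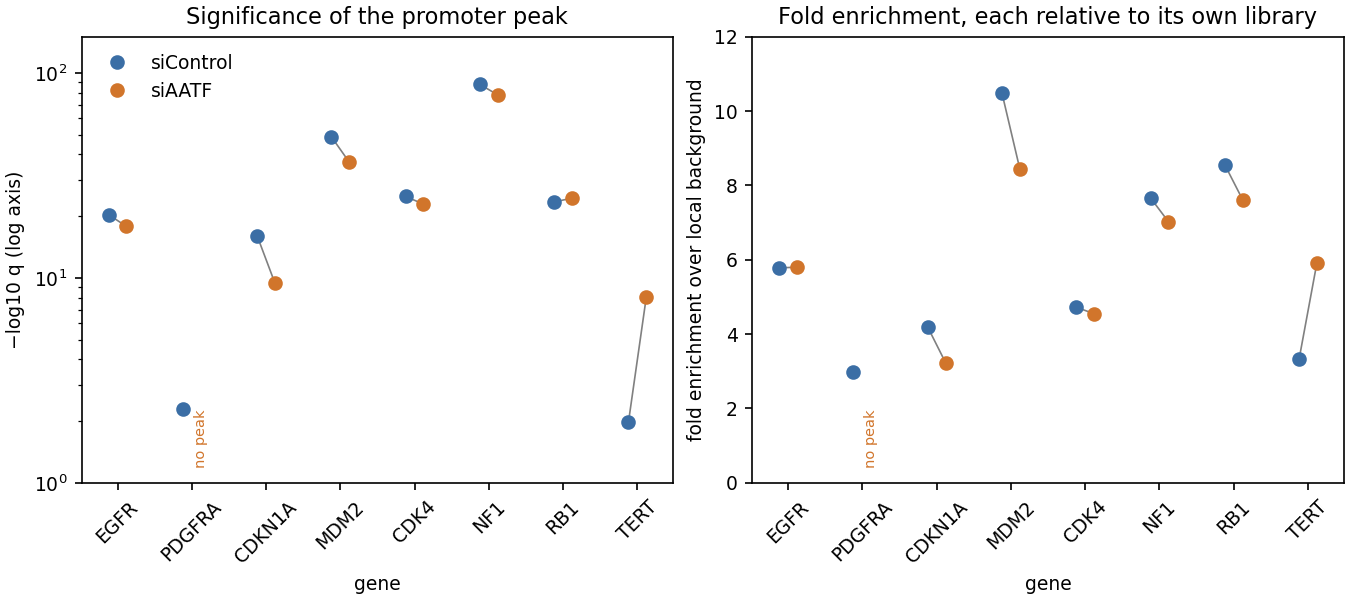
The left panel plots −log10 q on a log axis and the right panel fold enrichment on a linear axis for the promoter peak nearest the canonical start of each gene, with 1 point per list and a grey line joining the lists. NF1 has the highest −log10 q (87.8 and 78.1), MDM2 has the highest fold enrichment (10.5 and 8.45), and TERT is higher in siAATF in both panels.

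The receptor genes differed from each other. EGFR (ENSG00000146648.21, chromosome 7, 55086710 to 55279321) had a wide promoter peak at 55086341 to 55087639 in siControl, with a fold enrichment of 5.78, a −log10 q of 20.4 and a percentile rank of 49.5. In siAATF it was at 55086395 to 55087660, with 5.80, 17.8 and a rank of 53.8. The peak spanned exon 1 and reached into intron 1 in both lists. Its width of 1299 bp in siControl and 1266 bp in siAATF exceeded that of 94.9% and 94.01% of the peaks of each list. By −log10 q its rank was 67.9 in siControl and 66.6 in siAATF, so the small change in rank turned from a rise of 4.35 points to a change of −1.36 points, depending on the measure.

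PDGFRA (ENSG00000134853.12, chromosome 4, 55095447 to 55164412) had the promoter peak of lowest fold enrichment among the 8 genes in siControl. Its siControl promoter peak at 55096277 to 55096516 lay in intron 1, 817 to 1056 bp downstream of the canonical start, and covered 1 other coding start of the gene. The fold enrichment was 2.97, the −log10 q 2.28 and the percentile rank 1.62. The canonical start itself was under no peak in either list. A stronger peak lay further into intron 1, at 55099168 to 55099863 in siControl, with a fold enrichment of 6.07 and a rank of 53.7. In siAATF this intronic peak was at 55099214 to 55099839, with 5.86 and a rank of 54.8. The bases around the PDGFRA canonical start were less CpG-rich than those of the other genes, with 45.6% GC in the 500 bp around it and a ratio of observed to expected CpG of 0.588. For the other 7 genes the GC share was 66.4% to 78.0% and the ratio 0.689 to 1.10. The weak siControl promoter peak itself, downstream of that start, had 69.2% GC and a ratio of 1.06. The intron 1 peak had 71.0% GC and held 10 GCGCA half-sites on both strands together. Of coding genes with at least 55% GC and a ratio of at least 0.6 around the canonical start, 83.2% in siControl and 82.7% in siAATF had a peak at the promoter. Of the other coding genes, 20.5% and 20.3% did. PDGFRA was the only driver gene below these bounds around its canonical start.

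MDM2 had the strongest promoter peak of the 8 genes by fold enrichment, and CDKN1A a weaker one. The MDM2 peak (ENSG00000135679.27, chromosome 12) was at 69201595 to 69202255 in siControl, with a fold enrichment of 10.5, a −log10 q of 48.8 and a rank of 98.9. The siAATF peak was at 69201604 to 69202681, with 8.45, 36.7 and a rank of 91.0. The left edges of these peaks lay 9 bp apart, while the right edge lay 426 bp further downstream in siAATF. The siAATF peak thus reached past exon 1 into intron 1, towards the downstream coding starts of MDM2, which it did not cover.

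CDKN1A (ENSG00000124762.14, chromosome 6, 36644237 to 36655114) had 2 neighbouring peaks in each list. The promoter peak at 36646214 to 36646862 in siControl had a fold enrichment of 4.19, a −log10 q of 16.04 and a rank of 21.6. In siAATF it was at 36646240 to 36646944, with 3.23, 9.42 and a rank of 3.59. The second peak lay in intron 1, at 36647702 to 36648491 in siControl with a fold enrichment of 5.81, a −log10 q of 32.2 and a rank of 49.8. Its siAATF counterpart was at 36647674 to 36648520 with 6.08, 38.4 and a rank of 58.1. The peak over the start therefore ranked 18.0 points lower in siAATF and the intronic peak 8.27 points higher, so that they moved apart. By −log10 q the change of the peak over the start was −11.7 points. The promoter peak also covered the start of DINOL, a long non-coding RNA.

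Both RB1 and CDK4 had a peak over the canonical start in each list. RB1 (ENSG00000139687.16, chromosome 13) had a promoter peak at 48877497 to 48878288 in siControl, with a fold enrichment of 8.56, a −log10 q of 23.5 and a rank of 87.0. The siAATF peak was at 48877471 to 48878389, with 7.62, 24.5 and a rank of 80.7. It also covered the start of RB1-DT, a divergent long non-coding RNA. By fold enrichment RB1 ranked 6.24 points lower in siAATF and by −log10 q 2.67 points higher, so the direction depended on the measure.

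CDK4 (ENSG00000135446.17, chromosome 12, 58141510 to 58149796) had a peak over its canonical start at 58145930 to 58146526 in siControl, with a fold enrichment of 4.72, a −log10 q of 24.9 and a rank of 32.1. Its counterpart in siAATF was at 58145951 to 58146491, with 4.55, 22.9 and a rank of 30.9. A second peak counted as a CDK4 promoter peak only because of a far upstream coding start. It lay at 58148416 to 58149126 in siControl with a rank of 58.9, and at 58148415 to 58149132 in siAATF with a rank of 66.2. It covered a coding start of the neighbouring gene MARCHF9, a ubiquitin ligase gene, and no coding start of CDK4. The rank change was −1.17 points for the CDK4 peak and 7.28 points for the peak at MARCHF9.

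The NF1 promoter peak (ENSG00000196712.20, chromosome 17) was at 29421420 to 29422561 in siControl, with a fold enrichment of 7.66 and a rank of 75.6. In siAATF it was at 29421413 to 29422610, with 7.03 and a rank of 72.3. Its −log10 q of 87.8 and 78.1 placed it in the top 1.65% and 1.82% of the lists by that measure. The peak also covered the starts of MIR4733 and its host transcript MIR4733HG. The gene with the exact core thus had the most significant promoter peak of the 8 in both lists, while MDM2, with 2 mismatches, had the highest fold enrichment.

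TERT (ENSG00000164362.21, chromosome 5, 1253262 to 1295183) changed most. In siControl its promoter peak at 1295041 to 1295319 was 279 bp wide, with a fold enrichment of 3.32, a −log10 q of 1.97 and a rank of 4.29. In siAATF it was at 1294929 to 1295367 and 439 bp wide, with 5.91, 8.04 and a rank of 55.5. The siAATF peak contained the whole of the siControl peak, and both covered exon 1 bases and the canonical start. The rise was 51.3 points by fold enrichment, 39.6 points by −log10 q and 41.3 points among promoter peaks only. The siControl peak was near the weak end of its list, whose lowest −log10 q was 1.03.

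The rank changes of the 7 genes were read against all 15770 peaks shared 1 to 1. Over these, the median absolute change was 6.03 points, and 9.64% moved by more than 20 points. Of the 11081 pairs at coding promoters 6.71% did, and their changes ran from −16.7 at the 5th percentile to 17.6 at the 95th percentile. TERT was the only 1 of the 7 to move by more than 20 points. Only 24 pairs, 0.152% of the total, moved further than TERT. CDKN1A, at −18.0 points, was passed by 12.4% of pairs. MDM2, at −7.96 points, was passed by 40.04%, RB1 by 48.8%, EGFR by 60.5%, NF1 at −3.32 points by 67.8% and CDK4 by 86.9%. Of 966 pairs that ranked under 10 in siControl, as TERT did, 5 rose by more than 50 points (0.518%), and their changes had a median of 3.08 points and a 95th percentile of 30.3. Whether the TERT change would recur in a replicate was not tested.

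**Figure D3:**
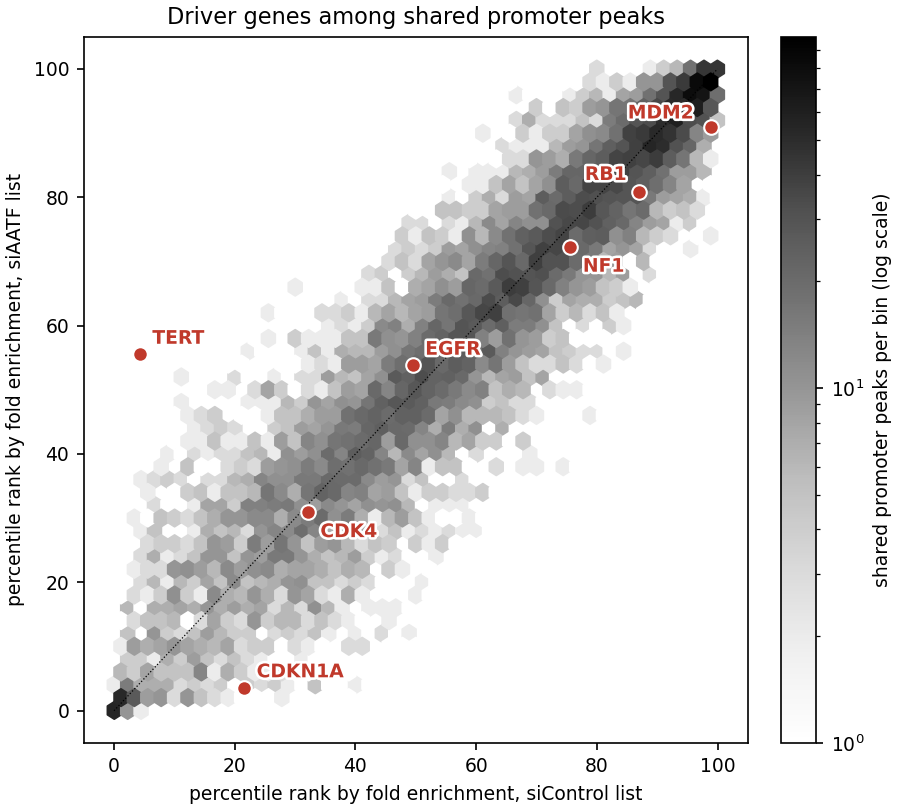
Percentile ranks by fold enrichment in siControl (x axis) and siAATF (y axis) are shown for promoter peaks shared 1 to 1, as hexagons shaded on a log scale by the number of peaks, with 7 driver genes as red points and equal rank as a dotted line. PDGFRA has no siAATF promoter peak and is not drawn. TERT lies far above the line (4.29 and 55.5) and CDKN1A below it (21.6 and 3.59), while the others lie nearer the line.

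Peaks inside the genes but away from their own promoters were found for 4 of 8 genes in siControl and 5 of 8 in siAATF, against 13.1% and 14.1% of coding genes. Long genes have more room for such peaks. Of coding genes of at least 100 kb, 27.1% had a gene body peak in siControl and 29.1% in siAATF. EGFR, NF1 and RB1 are of that length, at 193, 287 and 296 kb. MDM2, CDK4 and TERT had none in either list.

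EGFR had 4 gene body peaks in siControl, a number reached or passed by 0.505% of coding genes of any length, and 5 in siAATF. That share was not taken among long genes alone. The strongest lay in intron 1, 46.4 kb downstream of the start, at 55132743 to 55133416 in siControl (fold enrichment 7.50, −log10 q 14.01, rank 73.3) and at 55132704 to 55133489 in siAATF (6.97, 14.9, rank 71.5). It outranked the EGFR promoter peak by fold enrichment in both lists. By −log10 q the promoter peak ranked higher, at 67.9 against 59.1 in siControl and 66.6 against 62.5 in siAATF. A further 2 intron 1 peaks were shared, at 55154260 to 55154501 and 55198394 to 55198686 in siControl. Their ranks were 29.9 and 44.4 in siControl and 18.98 and 11.6 in siAATF. The −log10 q of these peaks was 3.42 and 5.70 in siControl and 2.52 and 2.15 in siAATF. The remaining EGFR peaks were in 1 list only. The siControl-only peak in intron 1 ranked 7.54, and the siAATF-only peaks at exon 9 and exon 22 ranked 3.39 and 19.3.

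The strongest intronic EGFR peak differed from the promoter peak in sequence. It had 42.0% GC and a ratio of observed to expected CpG of 0.239, against 73.5% and 0.927 for the EGFR promoter peak. It held no GC box (GGGCGG, either strand), a word found in 75.6% of siControl peaks and 13 times in the EGFR promoter peak. It held the word TGANTCA, which includes the AP-1 site, 2 times. That word was in 14.2% of all siControl peaks and in 8.84% of promoter peaks. Its 2 occurrences are shown at chr7:55132993-55133022 and chr7:55133299-55133328 on the plus strand, with the word in capitals. The first overlaps the best match to the NRF-1 core in this peak, which has 2 mismatches.
EGFR intron 1, first word: agctttgctggTGACTCAtgcgctgtgtgg
EGFR intron 1, second word: tcatgacacagTGAATCAtgttgtaaacat

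The most significant peak within the annotated span of any of the 8 genes was not at a start of that gene. It lay in RB1 as annotated, past the 3′ end of its canonical transcript, at 49106415 to 49107465 in siControl (fold enrichment 8.39, −log10 q 98.3) and at 49106384 to 49107447 in siAATF (8.06, 92.2). By −log10 q it ranked 99.6 and 99.8. It covered coding starts of RCBTB2, a gene on the opposite strand, and belonged to RB1 only through a long RB1 transcript. It held the exact core 2 times, at 404 and 322 bp downstream of the RCBTB2 canonical start, shown here to set beside NF1 (chr13:49106797-49106826 and chr13:49106879-49106908, plus strand, core in capitals).
RCBTB2, first core: cagaggactcGCGCATGCGCagcgcagcct
RCBTB2, second core: cagcggaattGCGCATGCGCagggccgcct

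The other gene body peaks of RB1 and NF1 were weak and in siAATF only. The RB1 peak at 49067931 to 49068163 had a −log10 q of 3.24 and a rank of 29.5. The NF1 peak in intron 36, at 29596765 to 29597047, had a −log10 q of 2.14 and a rank of 15.3. Over the 8 genes, 2 of 16 peaks were in siControl only and 4 of 18 in siAATF only, beside 11.4% and 13.4% of all peaks of the lists. None of these 6 reached a −log10 q of 5, as 3.03% of all siControl-only and 4.19% of all siAATF-only peaks did. The most significant of them had a −log10 q of 2.28 among the siControl peaks and 3.24 among those of siAATF. In each list, 12 of the peaks of the 8 genes had a −log10 q of 5 or more. The share of all peaks that did is not given here. The median −log10 q over all peaks was 9.94 in siControl and 9.27 in siAATF.

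**Figure D4:**
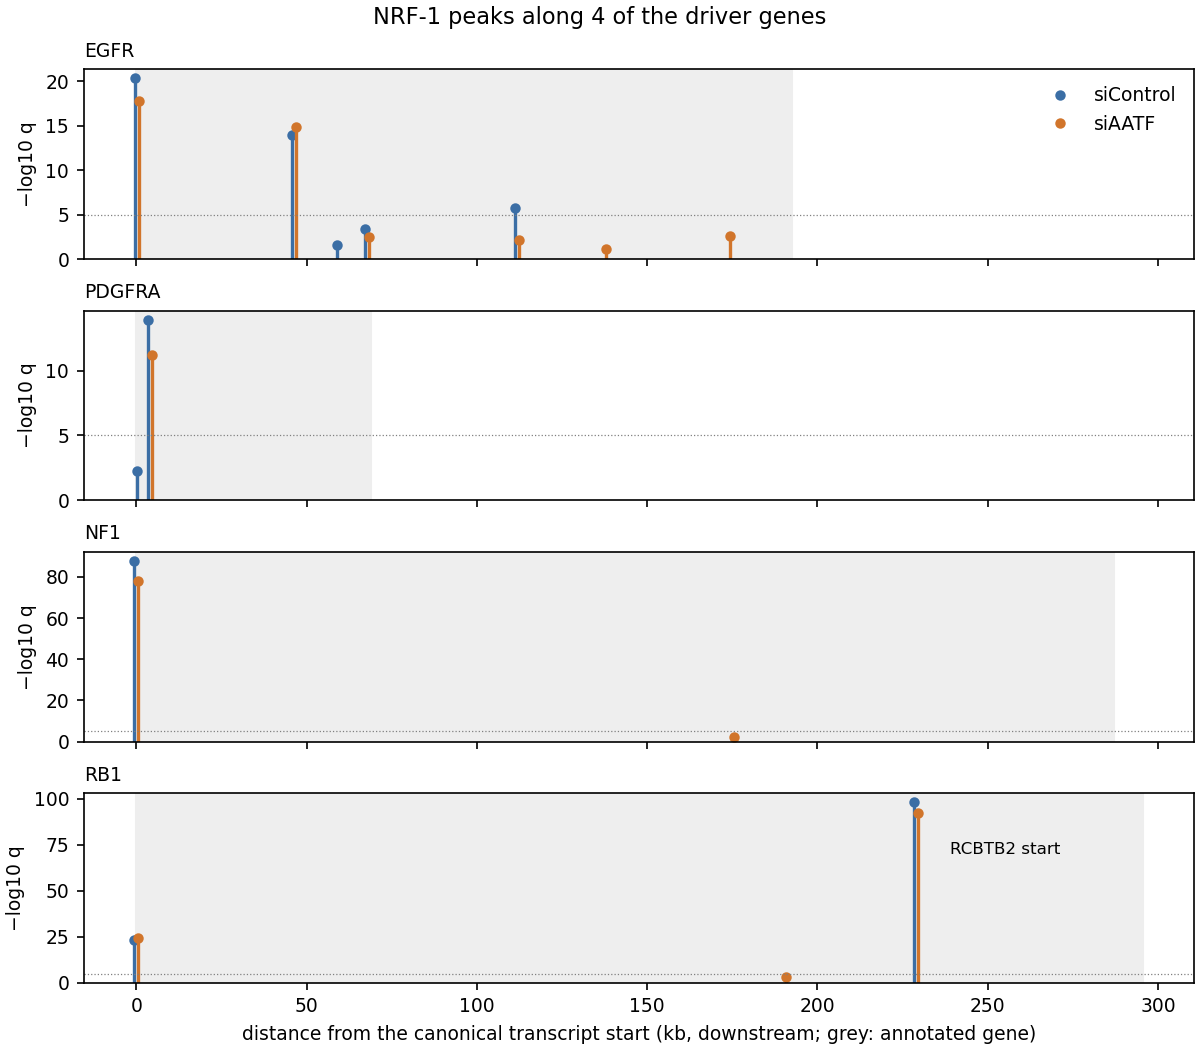
Each stem is a peak of EGFR, PDGFRA, NF1 or RB1, placed at its midpoint in kb downstream of the canonical start (siControl and siAATF drawn slightly apart) and as high as its −log10 q, on an axis of its own for each gene. The grey band is the annotated gene and the dotted line a −log10 q of 5. Peaks in 1 list only stay under that line, and the tall pair in RB1, past the 3′ end of its canonical transcript, is at the start of RCBTB2.

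Within the promoter peaks the sequence words were uneven. The GCGCA half-site, counted on both strands, was present in all but the PDGFRA peak, from 12 times in EGFR to 1 time in CDK4 in siControl, and in 89.2% of promoter peaks of all coding genes. The GC box was present in the peaks of all 8 genes, as it was in 91.2% of promoter peaks. The E-box CACGTG, a palindrome, occurred 4 times in the CDK4 peak over the start in each list and 1 time in each of the EGFR and TERT peaks of siControl, while 18.9% of promoter peaks held at least 1. The wider siAATF peaks held 2 at TERT and 1 at MDM2. TGANTCA was in none of the 8 promoter peaks but occurred 2 times in the CDKN1A intronic peak. Such words are descriptions of the reference and were not read as bound sites.

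The other genes of these pathways were counted from a fixed list of 77 that leaves out the 8 drivers. A promoter peak was found for 64 of them in siControl (83.1%, exact 95% CI 72.9 to 90.7) and for 63 in siAATF (81.8%, 71.4 to 89.7), beside the 61.1% and 60.7% of all coding genes. The intervals cover counting error only. The median rank of the strongest promoter peak was 54.7 in siControl and 54.9 in siAATF, below the 63.4 and 64.4 of all coding genes with a promoter peak. The share was thus higher and the median rank lower than over all coding genes, and neither difference was tested. The 77 genes were not matched to other genes for base composition. Of coding genes with at least 55% GC and a CpG ratio of at least 0.6 around the start, 83.2% and 82.7% had a promoter peak. The exact core was in 2 of 64 strongest promoter peaks in siControl, at GRB2, an adaptor of receptor signalling, and DKC1, a telomerase component. With at most 1 mismatch it was in 13 of 64 (20.3%).

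By role, all 12 RAS and MAPK genes and all 10 PI3K and mTOR genes had a promoter peak in both lists. It was 8 of 10 receptor tyrosine kinases, 5 of 8 growth factor ligands, 6 of 8 telomere genes and 8 of 10 other glioma genes, the same number in each list. A further role of 7 genes, counted in the 77, is not described by itself here. For the RB pathway it was 8 of 12 in siControl and 7 of 12 in siAATF. The 4 RB pathway genes with a peak in neither list, looked up after the counts were seen, were the D-type cyclin CCND1 and the CDK inhibitors CDKN2A, CDKN2B and CDKN2C. CCND2, another D-type cyclin, was the only 1 of the 77 with a promoter peak in 1 list only, a siControl peak of rank 17.9 with a −log10 q of 2.55. The ligand genes without a peak were EGF, HGF and IGF1, and the receptor genes FGFR2 and KIT. Peak lists do not give copy number, so genes without a peak could not be checked for loss of their DNA.

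**Figure D5:**
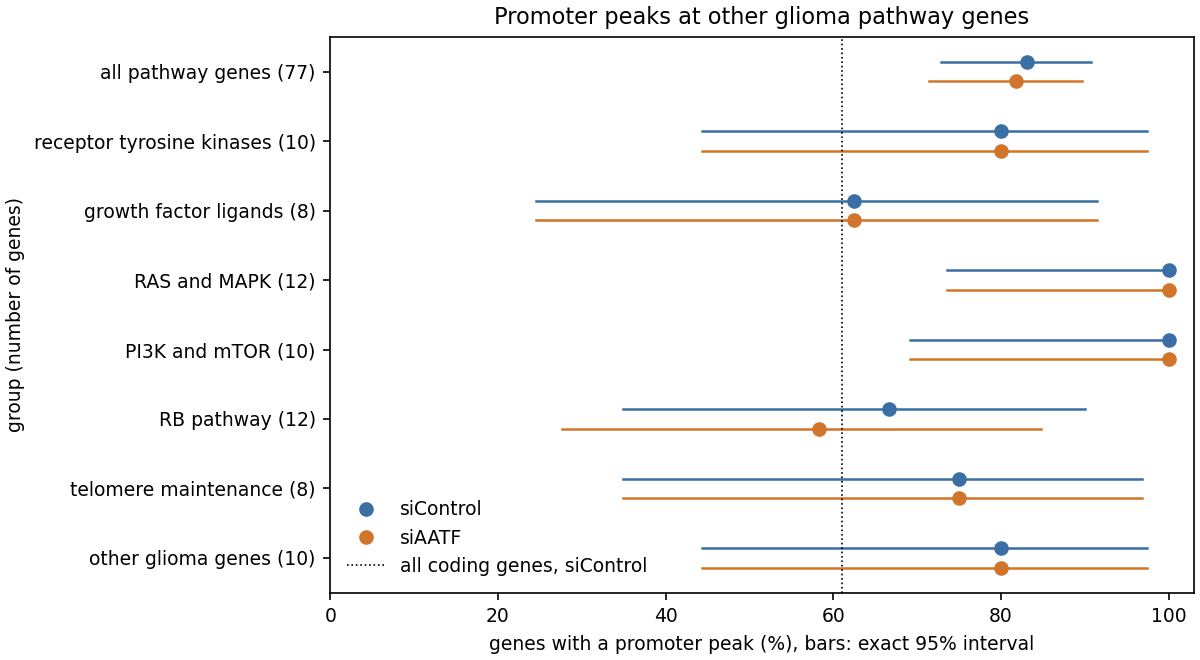
The share of genes with a promoter peak (x axis, %) is plotted for 77 pathway genes together and for 7 of the 8 roles into which they fall (number of genes in brackets), with points for siControl (blue) and siAATF (orange), bars for the exact 95% interval and a dotted line at the 61.1% of all coding genes in siControl. Of the roles drawn, RAS and MAPK and PI3K and mTOR are at 100% in both lists, and the growth factor ligands and RB pathway genes lie near the line.

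Of the 63 pathway genes with a shared promoter peak, 38 ranked higher and 25 lower in siAATF, with a median change of 0.818 points. 3 moved by more than 20 points, among them PDGFRB (rank 17.4 to 41.8) and MTOR (48.5 to 28.2), which were looked up after the values were seen. Of all pairs at coding promoters, 6.71% moved that far. How many of all those pairs ranked higher or lower is not given here, so the split of the pathway genes has no background. The highest siControl ranks among the 77 were those of IDH1, a metabolic enzyme (99.4), POT1, which caps telomeres (99.0), and USP7, a deubiquitinase that acts on MDM2 (94.8). The lowest were those of PDGFA, a ligand of PDGFRA (0.927), and AKT1, a kinase downstream of PI3K (7.53).

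The pathway gene closest to a driver gene in the plane of its strongest promoter peak's ranks in the 2 lists was also found, over 63 candidates. For CDK4, whose strongest peak is the one at MARCHF9, it was H3-3A, 1.14 points away. It was PDGFC for EGFR (2.13 points). CCND3 was 4.77 points from RB1 and PIK3CB 5.31 points from MDM2. The nearest to CDKN1A was MDM4 at 12.3 points. Likeness over 2 lists is a coarse measure.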

How the data were processed

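NRF-1 ChIPmentation peaks of U251 cells were analysed as 1 deposited MACS2 broadPeak list per condition. Per the study's methods, reads were aligned to hg19 with Bowtie2 and peaks called with MACS2 in an ATAC-seq pipeline with its defaults. No input library was named, and whether duplicates were pooled was not stated. Fold enrichment, a ratio to the local background, the −log10 p and −log10 q were deposited by the authors. The display score, also deposited, was not used, and the peak coordinates were taken as the authors gave them. Depth was unknown, and a deeper library would yield more peaks past the threshold and a higher −log10 q.

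Python 3.11.15, numpy 2.4.6, pandas 2.3.3, scipy 1.17.1 and pysam 0.24.0 were used. Starts came from GENCODE release 44 lifted to GRCh37, and a promoter was 1 kb either side of any coding transcript start. A gene body peak overlapped the gene but none of its promoter windows. Where a gene had several promoter peaks, the one nearest its canonical start was described. Shares were given exact 95% (Clopper-Pearson) intervals. The overlap, rank and motif functions were tested on made-up peaks. The genes, the 77 pathway genes and the motifs were chosen with earlier results of these data known. Besides the 8 genes, pathway genes were named if their promoter peak was in 1 list only, if they were among the 3 highest or lowest by siControl rank, or if nearest in rank to a driver gene, as was any gene with a coding start near a driver's promoter peak. A few genes that this rule names are not reported here. Alternatives were a −log10 q of at least 5, promoters of 500 bp and 2 kb, canonical starts only, reciprocal overlap of at least 50%, other rankings and the core searched in whole promoter windows.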

Additional observations from a re-analysis of the deposited data

How the results depend on the processing

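No paired analysis was possible because each condition had a single peak list, and no replicate could be left out. The counts of driver genes with promoter, shared or gene body peaks stayed within 1.5 times under each alternative run for them. With a −log10 q of at least 5, which removes weak peaks, promoter peaks remained for 6 driver genes in siControl (all but PDGFRA and TERT) and 7 in siAATF, and the share of pathway genes was 68.8% in siControl and 71.4% in siAATF, so that siControl was no longer the higher. The median rank of the 7 shared driver promoters, 49.5 in siControl and 55.5 in siAATF, was 70.9 and 72.1 by −log10 q and 38.1 and 44.1 among promoter peaks only. Their median rank change, −3.32 points, was −0.172 by −log10 q and −4.86 among promoter peaks only. By −log10 q the change turned to −1.36 points for EGFR and 2.67 for RB1, and the cause was not tested. With the strongest promoter peak, an alternative chosen after seeing the data, it was 7.28 for CDK4, since that alternative takes the peak at MARCHF9 in place of the one over the CDK4 start. TERT and CDKN1A kept their direction under the rankings tried. Weak peaks such as those of TERT in siControl and PDGFRA lie near the calling threshold, and unknown depth limits what their presence or absence can show.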
